A study of Mus musculus with 12 samples.

Results

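The developmental homeobox, Pax and T-box factors were taken as every gene of the table whose symbol starts with Hoxa, Hoxb, Hoxc, Hoxd, Pax, Lhx, Irx, Dlx, Tbx or Pitx directly followed by a digit, or with Nkx, together with the sine oculis homeobox family, taken by the same rule. There were 104 such genes of 21638: 39 Hox, 14 Nkx, 13 Tbx, 9 Pax, 8 Lhx, 6 sine oculis homeobox, 6 Irx, 6 Dlx and 3 Pitx genes, and all 104 were annotated as protein-coding. RNA was sequenced from adult mouse cortical endothelial cells sorted for CD31 and against CD41 and CD45, in 4 groups of 3 libraries. The groups were wild type (WT), endothelial deletion of the histone deacetylase gene Hdac2 in Hdac2lox/lox:Cdh5CreERT2 mice (Hdac2 ECKO), endothelial deletion of the Polycomb gene Ezh2 in Ezh2lox/lox:Cdh5CreERT2 mice (Ezh2 ECKO), and constitutive activation of beta-catenin in Ctnnb1lox/lox:Cdh5CreERT2 mice (beta-catenin GOF). Cdh5CreERT2 is a tamoxifen-inducible Cre recombinase driven by the promoter of Cdh5, the gene of VE-cadherin, so recombination is directed to endothelium and depends on how many cells the drug reaches. Per the labels' protocols, mice received 5 doses of tamoxifen at 75 mg/kg and brains were taken after 2 months. Whether WT mice carried Cre or lox alleles or received tamoxifen, and the exact age of any group, are not given in the sources used here. Nothing in the labels says whether replicates came from separate mice, so p-values measure only the spread between these libraries, which may be technical.

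These families encode DNA-binding proteins that pattern the embryo. Homeobox genes carry the homeodomain, Pax genes the paired domain and Tbx genes the T-box, and each set marks positions or lineages: Hox genes the body axis, Dlx and Lhx genes forebrain neurons, Nkx genes ventral neural tube and gut, T-box genes heart, limb and somites. In most adult cells they are silent, and their CpG-rich start regions are classical targets of Polycomb repressive complex 2 (PRC2), in which EZH2 or EZH1 methylates histone H3 at lysine 27. HDAC2 removes acetyl groups from histones, and beta-catenin is the transcriptional coactivator of the Wnt pathway.

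Start-region sequences were available from RefSeq (GRCm38.p6) for 67 of the 104 genes, and the 250 bases before the start were examined. For each of the 67 genes 1 window was used, that of the RefSeq start nearest to its start in the count table. The windows set beside them were all those available, without choosing 1 per gene. The median window held 13 CpG dinucleotides among these genes and 6 among all 32851 windows of the table, and 10 or more CpG stood in 46 of the 67 (68.7%), against 37.8% of all windows. Windows of 9 genes abundant enough for a test held a median of 13, from 6 to 26, and those of 8 genes without a single count in any library a median of 12.5, from 7 to 30. The ranges of transcribed and silent members overlapped. For 13 of the 67 the RefSeq start lay more than 1000 bases from the start in the count table, among them Tbx4 (10343 bases) and Nkx2-2 (7841 bases). Over the other 54 the median was 14.5 CpG, and it was 13.5 for testable genes and 13.0 for genes at 0. The windows of Tbx1 (chr16:18590672-18590921, minus strand, 10 CpG) and Tbx18 (chr9:87731261-87731510, minus strand, 15 CpG), which are transcribed here, are printed beside those of Hoxb8 (chr11:96281655-96281904, plus strand, 12 CpG) and Nkx2-2 (chr2:147186403-147186652, minus strand, 8 CpG), which had 0 counts in every library. Each runs 5′ to 3′ on the gene's strand up to its RefSeq start, which for Nkx2-2 is the distant one, and capitals mark CpG.
Tbx1: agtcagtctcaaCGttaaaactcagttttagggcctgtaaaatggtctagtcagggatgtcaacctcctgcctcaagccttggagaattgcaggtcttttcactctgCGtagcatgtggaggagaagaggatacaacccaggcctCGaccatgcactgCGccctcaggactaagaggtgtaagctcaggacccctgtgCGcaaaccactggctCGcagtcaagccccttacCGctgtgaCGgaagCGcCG
Tbx18: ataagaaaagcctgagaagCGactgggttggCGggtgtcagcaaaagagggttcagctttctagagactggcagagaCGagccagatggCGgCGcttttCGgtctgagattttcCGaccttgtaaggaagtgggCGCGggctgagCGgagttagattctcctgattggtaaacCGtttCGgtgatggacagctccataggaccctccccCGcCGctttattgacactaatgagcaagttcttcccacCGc
Hoxb8: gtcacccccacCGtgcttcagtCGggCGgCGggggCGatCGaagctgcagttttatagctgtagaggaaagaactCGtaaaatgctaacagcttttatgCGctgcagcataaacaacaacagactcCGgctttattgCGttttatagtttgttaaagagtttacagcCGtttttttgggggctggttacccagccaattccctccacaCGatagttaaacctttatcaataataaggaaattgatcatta
Nkx2-2: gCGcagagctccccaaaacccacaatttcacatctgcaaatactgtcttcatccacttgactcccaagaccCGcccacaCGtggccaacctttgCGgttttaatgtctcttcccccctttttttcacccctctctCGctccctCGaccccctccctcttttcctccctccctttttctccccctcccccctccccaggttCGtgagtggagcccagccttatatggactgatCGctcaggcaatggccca
The T-box half-site AGGTGTGA, searched on both strands, stood in 1 of the 67 windows (1.5%) and in 1.1% of all windows. The TCF/LEF motif CTTTGAA or CTTTGAT, searched the same way, stood in 3 of the 67 (4.5%) and in 7.5% of all windows. A match is a description of the letters only.

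Library totals were 24781070 to 36109975 counts, with 13922 to 17091 genes above 0. Counts are of read mates, so a single fragment usually adds 2, and 3 counts were taken as the floor, which corresponds to 0.0792 to 0.118 counts per 1000000 of the scaled library total (CPM). The floor covers counting error only, while the intervals of the fold changes also include the spread between libraries. The 12 endothelial markers, among them Pecam1, Cdh5 and Cldn5, were all detected in every library. Their summed level was 20622 to 25535 CPM in WT libraries and 17032 to 18770 CPM for Hdac2 ECKO. It was 19859 to 24272 CPM in the Ezh2 ECKO-labelled libraries and 22214 to 24699 CPM in beta-catenin GOF. Every Hdac2 ECKO sum thus lay below those of all other groups. Single markers differed from WT in both directions there, and none passed the test. Ly6c1, the largest part of the sum, was at 8132 CPM for Hdac2 ECKO and 12896 CPM in WT libraries. Flt1 was at 2051 and 1294 CPM in the same order. Hdac2 itself stood at 162.5, 121.5 and 103.8 CPM in WT libraries and 82.2, 94.99 and 112 CPM for Hdac2 ECKO. The means were 129 ± 30.1 and 96.5 ± 15.2 (SD, n = 3), and their difference did not pass the test. In beta-catenin GOF, Hdac2 was as low, at 88.6, 92.3 and 107.6 CPM (96.2 ± 10.1), so the lower level was not particular to Hdac2 ECKO. It was at 121 ± 17.1 CPM in the Ezh2 ECKO-labelled libraries. Ezh2 stood at 8.88, 2.69 and 8.69 CPM in WT libraries and 9.85, 5.20 and 11.7 CPM in the Ezh2 ECKO-labelled libraries, means of 6.75 ± 3.52 and 8.92 ± 3.36, which goes against the label. These are counts per gene, which do not show whether the lox-flanked exons were removed. Ctnnb1 stood at 696, 576 and 478 CPM in beta-catenin GOF (583 ± 109) and at 546, 608 and 809 CPM in WT libraries (654 ± 138). Hdac2 ECKO replicate 1 stood apart from all other libraries, with 17091 genes above 0, while the highest of the others had 16026. Blood-cell markers differed between the groups. The 5 erythroid markers (4 hemoglobin genes and Alas2) summed to 36133 to 61379.5 CPM in WT libraries, 401 to 21676 CPM for Hdac2 ECKO, 2519 to 6664 CPM in the Ezh2 ECKO-labelled libraries and 510 to 35370.1 CPM in beta-catenin GOF, all 5 of them detected in every library. The 9 microglia and leukocyte markers summed to 20.9 to 48.2, 2.64 to 5.58, 6.55 to 14.8 and 3.14 to 5.95 CPM in the same order of groups, with 2 to 8 of the 9 detected. Most of the WT sum was Cd74, at 25.2 CPM in WT libraries and 0.477, 1.93 and 1.23 CPM in the mutant groups. Csf1r was at 1.78 CPM in WT libraries and higher in each mutant group, at 1.86, 6.14 and 2.80 CPM. C1qa, C1qb and Ptprc were at 0.707, 1.80 and 0.692 CPM in WT libraries and lower in each mutant group.

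Most of these developmental factors were silent or close to it in cortical endothelium. Only 12 of 104 (11.5%) reached a mean of 10 counts over the libraries, the minimum for the test, against 58.1% of all genes. At least 4 counts in some library were reached by 49 (47.1%), against 82.5% of all genes, and at least 4 counts in every library by 7 (6.73%), against 51.5%. No count at all was found for 13 (12.5%), against 5.98% of all genes: Hoxb1, Hoxb6, Hoxb7, Hoxb8, Hoxc5, Irx1, Irx4, Lhx3, Nkx1-1, Nkx2-2, Nkx2-3, Nkx2-6 and Nkx2-9. In bulk RNA, few cells with a transcript and little transcript in every cell cannot be told apart.

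**Figure D1:**
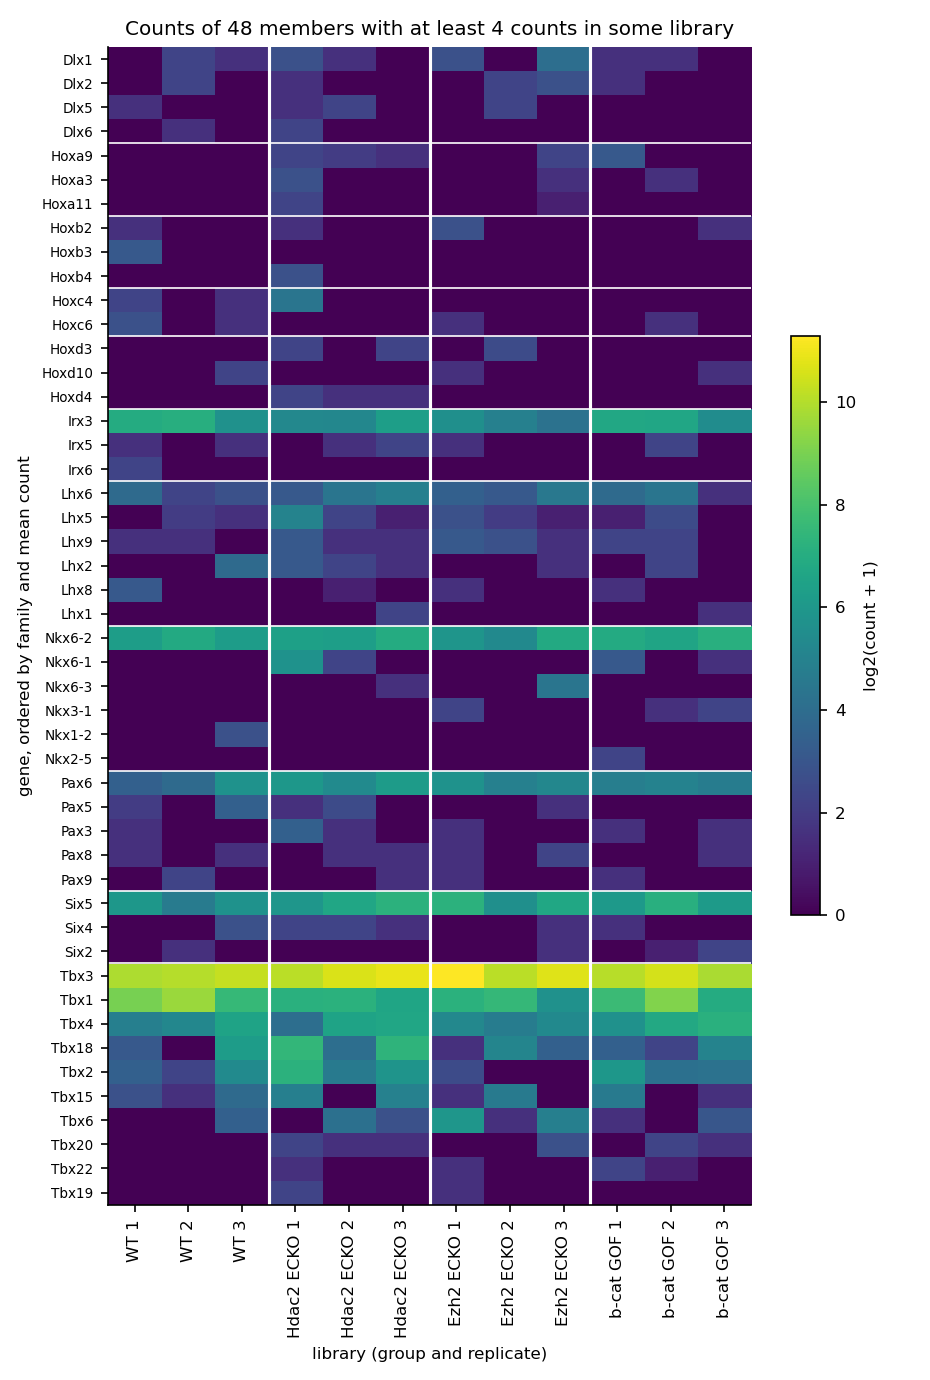
Counts of 48 of the 49 members with at least 4 counts in some library. Rows are genes ordered by family and mean count, columns are libraries by group and replicate, and color is log2(count + 1). Bright rows are few: Tbx3 in every library, then Tbx1, Nkx6-2, Six5 and Irx3, while the Hox rows stay dark except Hoxc4 with 20 counts in Hdac2 ECKO replicate 1.

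The Hox genes, which assign position along the body axis, gave almost no reads. All 39 together held 234 counts over the 12 libraries. The summed Hox counts of replicates 1, 2 and 3 were 24, 12 and 16 for WT, 67, 11 and 18 for Hdac2 ECKO, 21, 11 and 25 in the Ezh2 ECKO-labelled libraries, and 11, 10 and 8 in beta-catenin GOF. Apart from Hdac2 ECKO replicate 1, the mutant libraries held 8 to 25 Hox counts and the WT libraries 12 to 24. The highest count of any Hox gene in any library was 20, for Hoxc4 in Hdac2 ECKO replicate 1, and Hoxc4 had 4, 0 and 2 counts in WT and 0 in every other mutant library. Hoxa9 had 21 counts in all, Hoxb9 14 and Hoxd3 13. None of the 4 clusters (Hoxa with 68 counts, Hoxb with 52, Hoxc with 62, Hoxd with 52) had a member abundant enough for the test, so no Hox gene could be compared between groups.

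Among the forebrain and neural tube families, Dlx genes, which specify inhibitory neurons, held 79 counts in all, and the 3 Pitx genes, factors of pituitary and limb identity, held 10. The 14 Nkx genes held 1228 counts, of which 1110 were Nkx6-2. The 6 Irx genes held 831 counts, of which 806 were Irx3. Six5 held 1033 of the 1088 counts of its family. The 9 Pax genes held 547 counts, of which 454 were Pax6, and the 8 Lhx genes 317, of which 156 were Lhx6. A single member thus carried most counts in the Nkx, Irx and Pax families and in that of Six5. The 13 Tbx genes held 21705 of the 26039 counts of all 104 members, and Tbx3 alone 16604.

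Silent members lay next to transcribed ones. Tbx3 (16604 counts over all libraries) and Tbx5 (3 counts) are neighbours on chromosome 5, 147.9 kb apart. Irx3 (806 counts) and Irx5 (16 counts) stand 555.6 kb apart on chromosome 8, and Irx6, the next gene of that cluster, had 4 counts. On chromosome 11, Tbx2 (387 counts) and Tbx4 (778 counts) are 44.5 kb apart and both were abundant enough for the test. These counts are per gene and not per length.

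The number of members detected per library differed between Hdac2 ECKO and WT by an amount that depended on the threshold. Replicates 1, 2 and 3 had 16, 13 and 17 members with at least 4 counts among WT libraries, 28, 17 and 15 in Hdac2 ECKO, 15, 14 and 16 in the Ezh2 ECKO-labelled libraries, and 16, 15 and 12 in beta-catenin GOF. The mean difference from WT was 4.67 members for Hdac2 ECKO, -0.333 for the Ezh2 ECKO-labelled libraries and -1.0 for beta-catenin GOF, a description with no test. Without Hdac2 ECKO replicate 1 the first of these was 0.667. The share of all genes with at least 4 counts was also highest in that library, 68.6%, against 58.6% to 64.5% in the other 11. Its 92 untested members held 216 counts, while those of the other libraries held 31 to 108. At 1 count or more there were 29, 26 and 32 members in WT libraries and 45, 33 and 35 for Hdac2 ECKO, so that all Hdac2 ECKO values lay above all WT values, and the mean difference was 8.67, or 5.0 without Hdac2 ECKO replicate 1. The share of all genes at 1 count or more was likewise higher, 71.0% to 79.0% against 65.6% to 67.0%. Counting members at 0.5 CPM or more gave 6 to 9 for WT, 11 to 13 for Hdac2 ECKO, 8 to 11 in the Ezh2 ECKO-labelled libraries and 8 to 9 in beta-catenin GOF. At that threshold the Hdac2 ECKO range lay above that of WT, and so did the share of all genes at 0.5 CPM or more, 55.7% to 56.7% against 54.5% to 54.9%.

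**Figure D2:**
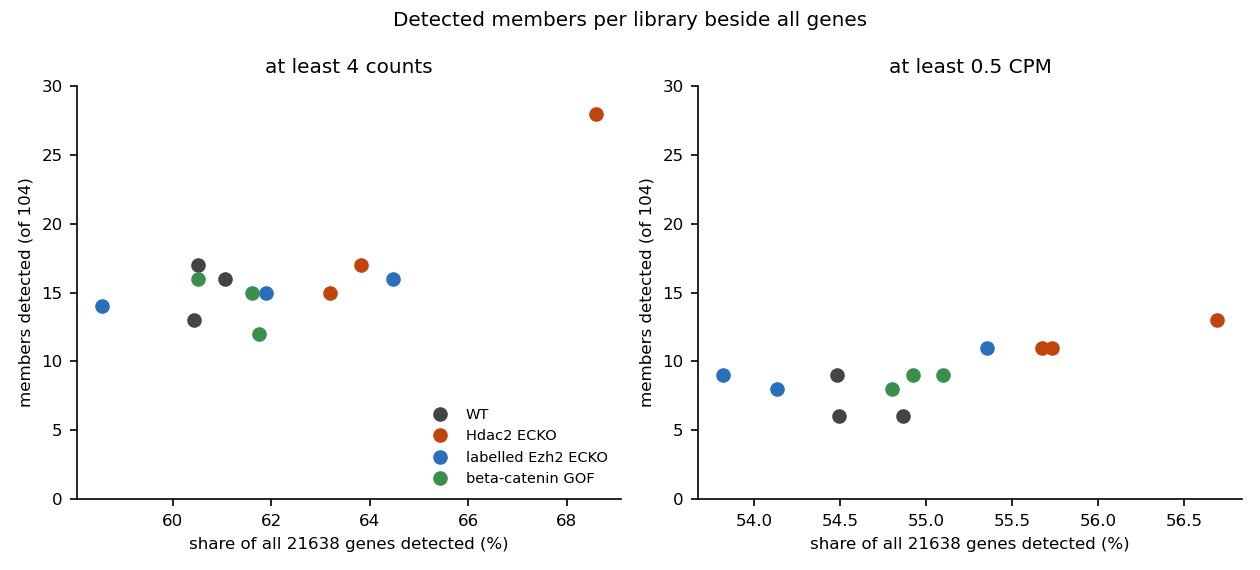
Detected members per library (vertical axis, of 104) against the share of all 21638 genes detected in the same library (horizontal axis, percent), at a threshold of 4 counts (left) and of 0.5 CPM (right). Each point is a library, colored by group. Hdac2 ECKO replicate 1 stands alone at 28 members and 68.6% of all genes on the left.

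By level per length, the 12 tested members ran from 7.01 CPM per kb of gene length for Tbx3 to 0.0910 CPM per kb for Lhx6, as means over the 12 libraries. Tbx3 lay above 65.8% of all tested genes on this scale. Tbx1 followed at 2.39 CPM per kb (above 43.2%), then Nkx6-2 at 1.61 (34.8%), Six5 at 0.948 (24.9%) and Irx3 at 0.801 (22.2%). The other 7 lay above 18.7% or less of tested genes. In CPM, Tbx3 was the highest member in each library, but per kb Tbx1 stood above it in WT replicate 2, at 6.81 against 4.96 CPM per kb, and level with it in WT replicate 1, at 4.94 against 4.92. Below Tbx3 the order was less fixed: in Hdac2 ECKO the per-kb mean of Tbx1 was 1.28, below 1.74 for Nkx6-2.

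No member passed the test in any of the 6 comparisons between groups (edgeR's quasi-likelihood test, Benjamini-Hochberg over 12577 genes, threshold 0.05). Against WT, 0 of 12 passed in Hdac2 ECKO where 9.2% of all tested genes did, 0 of 12 in the Ezh2 ECKO-labelled libraries where 1.03% did, and 0 of 12 in beta-catenin GOF where 0.0% did. Between mutants, 0 of 12 passed for Hdac2 ECKO against Ezh2 ECKO (all genes 0.0239%), for beta-catenin GOF against Hdac2 ECKO (0.0716%) and for beta-catenin GOF against Ezh2 ECKO (0.0636%). At an unadjusted p under 0.05 the counts were 1 of 12 in Hdac2 ECKO against WT (Tbx1; all genes 33.1%), 4 in the Ezh2 ECKO-labelled libraries (Tbx1, Tbx2, Tbx3 and Irx3; all genes 24.7%) and 0 in beta-catenin GOF (all genes 6.07%). They were 1 for Hdac2 ECKO against Ezh2 ECKO (Tbx2; all genes 8.19%), 2 for beta-catenin GOF against Hdac2 ECKO (Tbx3 and Tbx18; all genes 21.1%) and 2 for beta-catenin GOF against Ezh2 ECKO (Tbx2 and Tbx3; all genes 13.2%). The 3 comparisons against WT share the WT libraries.

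Complete separation of the 3 values from those of WT was counted for the 12 members beside all tested genes. In Hdac2 ECKO, 1 of 12 was higher without overlap (Six5; 19.5% of all tested genes) and 1 was lower (Tbx1; 18.2%). In the Ezh2 ECKO-labelled libraries, 0 were higher (11.1% of all tested genes) and 1 was lower (Irx3; 10.9%). In beta-catenin GOF, 0 were higher (6.83%) and 0 lower (5.87%). The median log2 fold change of the 12 was 1.13 in Hdac2 ECKO, with 10 positive and 2 negative, 0.07 in the Ezh2 ECKO-labelled libraries and 0.04 in beta-catenin GOF, each with 6 positive and 6 negative. Over all tested genes the medians were 0.10, 0.05 and 0.01, and 54.0%, 52.6% and 51.1% of the log2 fold changes were positive. Genes of like level were not compared separately. Tbx15 and Tbx6, each at a mean of 11.0 counts, reached the count minimum only through the group where they are high. Tbx15 had 28, 0 and 30 counts in Hdac2 ECKO, and Tbx6 had 60, 2 and 28 counts in the Ezh2 ECKO-labelled libraries. The filter thus favours their positive log2 fold changes there, which enter these medians and sign counts. Standard errors of the members' log2 fold changes in Hdac2 ECKO ran from 0.28 for Tbx3 to 1.77 for Tbx15, while the median over all tested genes was 0.37. For most members only large differences could thus have been detected. Low counts and the spread between libraries both enter these errors, and their parts were not tested.

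**Figure D3:**
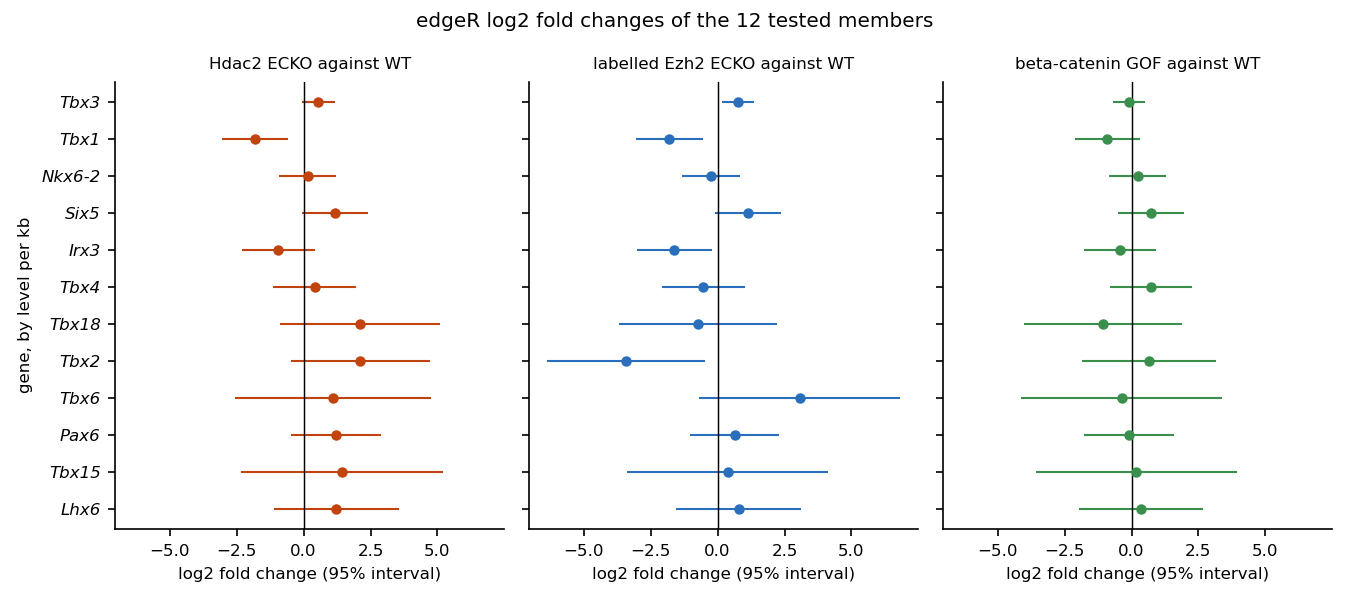
Log2 fold changes against WT (edgeR) of the 12 tested members with 95% intervals, in 1 panel per mutant group, ordered from the highest level per kb (Tbx3) to the lowest (Lhx6). Intervals leave out 0 for Tbx1 in Hdac2 ECKO and for Tbx1, Tbx2, Tbx3 and Irx3 in the Ezh2 ECKO-labelled libraries, none of which passed after adjustment.

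Tbx1, the T-box gene lost in DiGeorge syndrome and a factor of the pharynx and its vessels, came closest to the threshold. Its level was 17.4, 23.9 and 6.62 CPM in WT libraries replicates 1 to 3, and 5.38, 4.76 and 3.40 CPM for Hdac2 ECKO. It was 4.77, 7.12 and 1.83 CPM in the Ezh2 ECKO-labelled libraries, and 7.10, 15.0 and 3.49 CPM in beta-catenin GOF. All Hdac2 ECKO values lay below all WT values, and the other groups overlapped with WT through WT replicate 3. The log2 fold change was -1.82 (SE 0.58, edgeR adjusted p = 0.0576) in Hdac2 ECKO, -1.81 (SE 0.58, adjusted p = 0.0934) in the Ezh2 ECKO-labelled libraries and -0.91 (SE 0.57, adjusted p = 0.892) in beta-catenin GOF. Without WT replicate 3 the values were -2.19 (adjusted p = 0.0292) and -2.18 (adjusted p = 0.0338) in the first pair of groups, both past the threshold, and without Ezh2 ECKO replicate 2 the latter was -2.27 (adjusted p = 0.0302). DESeq2 called both, at adjusted p = 0.0128 and 0.0301. Over all alternatives the adjusted p ran from 0.00121 to 0.184 and from 0.00273 to 0.282, and the sign was negative in each. WT replicate 3, the lowest of WT for Tbx1, had the highest erythroid marker sum, 61379.5 CPM. Tbx1 spans chr16:18580979-18590671 on the minus strand of GRCm38 and overlaps no other annotated gene.

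Tbx3, a repressor known from limb, mammary gland and cardiac conduction tissue, was the most abundant member. It was at 32.6, 32.9 and 43.9 CPM in WT libraries, 42.4, 52.4 and 65.9 CPM for Hdac2 ECKO, 80.6, 43.3 and 60.9 CPM in the Ezh2 ECKO-labelled libraries, and 36.2, 39.6 and 26.7 CPM in beta-catenin GOF. WT replicate 3 overlapped with the lowest value of both deletion groups. The log2 fold change against WT was 0.56 (SE 0.28, adjusted p = 0.183), 0.76 (SE 0.28, adjusted p = 0.125) and -0.09 (SE 0.28, adjusted p = 0.982), the last of which changed sign in 3 of 15 alternatives. Every beta-catenin GOF value lay below every value of both deletion groups, which also held for Pax6. The direct log2 differences of Tbx3 were -0.65 against Hdac2 ECKO (edgeR adjusted p = 0.216) and -0.85 against Ezh2 ECKO (edgeR adjusted p = 0.296). The share of all tested genes that separate between mutant groups was not counted. Leaving out Ezh2 ECKO replicate 2 brought the difference from WT to 0.96 (adjusted p = 0.0275). An antisense gene, Tbx3os1, overlaps Tbx3, and use of strand in the counting is not given in the sources used here, so their reads cannot be told apart.

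Tbx2, the closest relative of Tbx3 and likewise a repressor, was low and uneven between replicates. Its level was 0.347, 0.127 and 1.46 CPM in WT libraries, 5.72, 0.751 and 1.98 CPM for Hdac2 ECKO, 0.162, 0 and 0 CPM in the Ezh2 ECKO-labelled libraries, and 2.08, 0.449 and 0.523 CPM in beta-catenin GOF. All 3 Hdac2 ECKO and all 3 beta-catenin GOF values lay above the highest of the Ezh2 ECKO-labelled libraries. Tbx4 was likewise higher without overlap in beta-catenin GOF than in the Ezh2 ECKO-labelled libraries. How many of all tested genes separate between mutant groups was not counted. The direct log2 difference of Tbx2 was 5.54 between Hdac2 ECKO and Ezh2 ECKO (SE 1.48, edgeR adjusted p = 0.321). It was 4.07 between beta-catenin GOF and Ezh2 ECKO (SE 1.41, edgeR adjusted p = 0.299). DESeq2 gave 5.60 with an adjusted p of 0.00647 for Hdac2 ECKO against Ezh2 ECKO, over a range of 0.00396 to 0.92 for all alternatives. Against WT the log2 fold changes of Tbx2 were 2.12 (edgeR adjusted p = 0.232), -3.41 (adjusted p = 0.151) and 0.65 (adjusted p = 0.963). The libraries labelled Ezh2 ECKO are near the floor for this gene, so the sizes of these fold changes are uncertain. Tbx4, its neighbour and a factor of hindlimb and lung mesenchyme, was at 0.972, 1.14 and 3.28 CPM in WT libraries, 0.606, 3.00 and 3.54 CPM for Hdac2 ECKO, 1.23, 1.02 and 1.44 CPM in the Ezh2 ECKO-labelled libraries and 1.77, 2.96 and 4.18 CPM in beta-catenin GOF, and each group overlapped with WT.

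**Figure D4:**
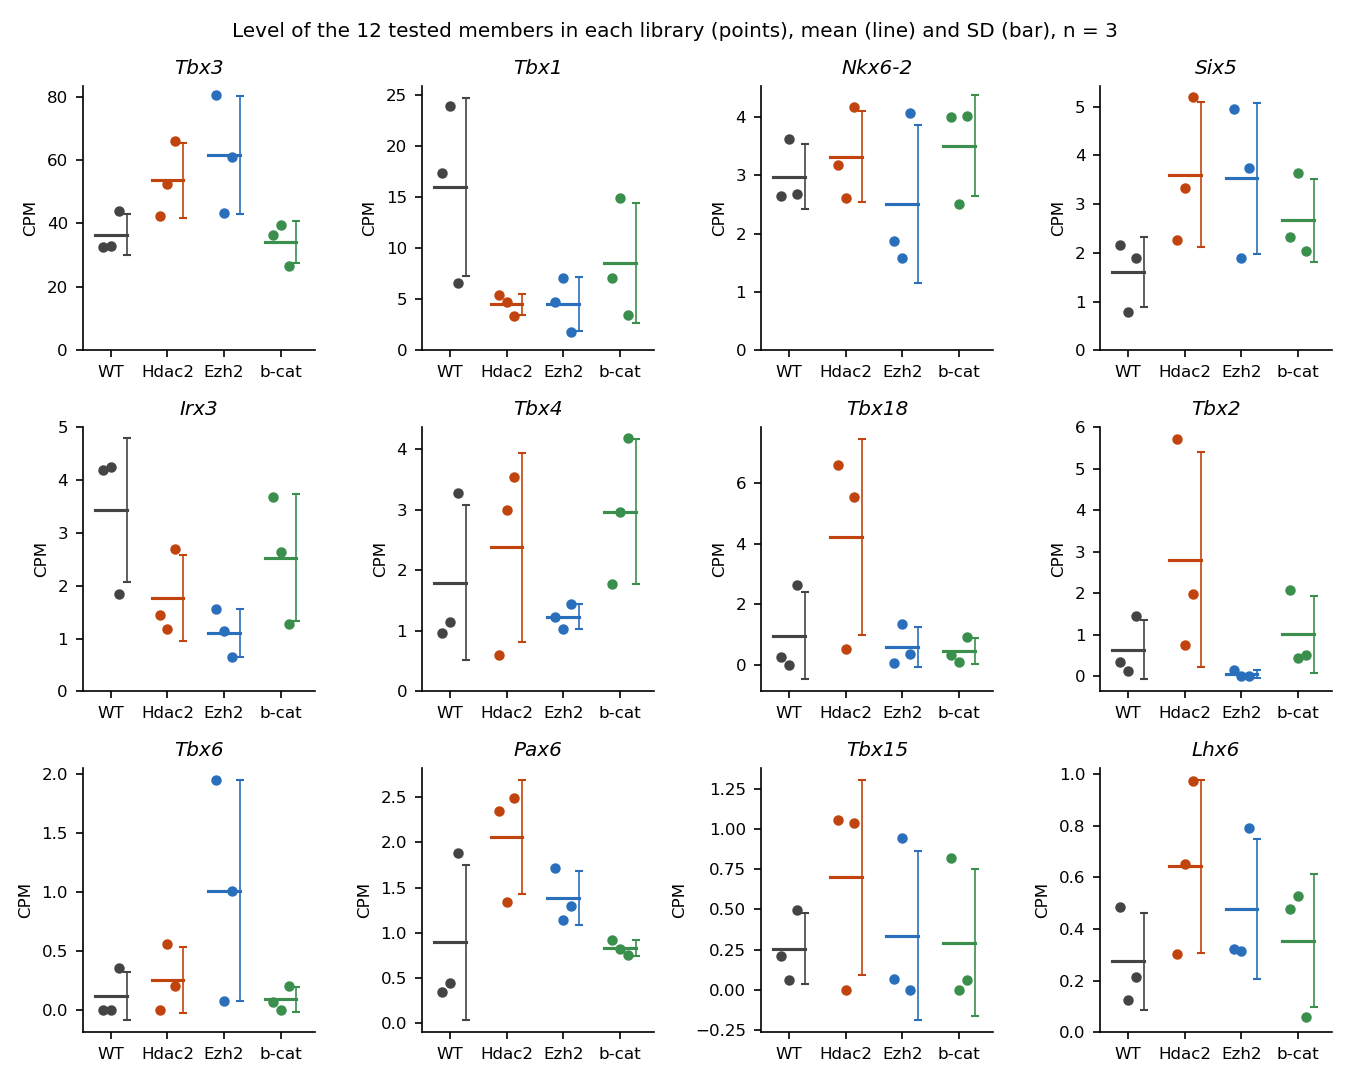
Level in CPM of the 12 tested members in each library. Each panel is a gene, points are the 3 replicates of a group, the horizontal line is their mean and the bar the SD, and b-cat stands for beta-catenin GOF and Ezh2 for the Ezh2 ECKO-labelled libraries. Tbx1 is higher in WT replicates 1 and 2 (17.4 and 23.9 CPM) than in every deletion library, and Tbx2 is at 0 to 0.162 CPM in the Ezh2 ECKO-labelled libraries.

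Tbx18 is a known marker of pericytes and vascular smooth muscle, the mural cells that wrap vessels. It was at 0.278, 0 and 2.64 CPM in WT libraries, 6.59, 0.522 and 5.55 CPM for Hdac2 ECKO, 0.065, 1.34 and 0.359 CPM in the Ezh2 ECKO-labelled libraries, and 0.341, 0.106 and 0.929 CPM in beta-catenin GOF. Hdac2 ECKO replicates 1 and 3 were the highest of all libraries and replicate 2 was within the WT range. The log2 fold changes against WT were 2.12 (SE 1.41, adjusted p = 0.304), -0.73 (SE 1.39, adjusted p = 0.782) and -1.07 (SE 1.39, adjusted p = 0.952), and the direct difference of beta-catenin GOF from Hdac2 ECKO was -3.19 (SE 1.47, adjusted p = 0.23). Tbx15, a factor of limb and dermal mesenchyme, was at 0.208, 0.063 and 0.498 CPM in WT libraries, 1.06, 0 and 1.04 CPM for Hdac2 ECKO, 0.065, 0.944 and 0 CPM in the Ezh2 ECKO-labelled libraries, and 0.819, 0 and 0.058 CPM in beta-catenin GOF. It too was highest in Hdac2 ECKO replicates 1 and 3, through which it reached the count minimum, and all groups overlapped.

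Mural markers differed between the same libraries. The summed level of 12 mural markers (Pdgfrb, Rgs5, Cspg4, Kcnj8, Abcc9, Vtn, Notch3, Acta2, Myh11, Tagln, Cnn1 and Des) was 68.1, 87.8 and 124 CPM in WT libraries and 326, 131 and 242 CPM for Hdac2 ECKO. It was 58.0, 76.5 and 61.2 CPM in the Ezh2 ECKO-labelled libraries and 389, 122 and 123 CPM in beta-catenin GOF. Between 8 and 11 of the 12 were detected per library in WT, all 12 in each Hdac2 ECKO library, 10 to 11 in the Ezh2 ECKO-labelled libraries and 11 to 12 in beta-catenin GOF. Cnn1 was at 0 in all WT libraries and Cspg4 at 0 in WT replicate 2. In Hdac2 ECKO, 4 of the 11 tested markers rose, where 9.2% of all tested genes passed in either direction (edgeR, median log2 fold change of the list 1.40): Myh11 by 3.39 (adjusted p = 0.0323), Pdgfrb by 4.12 (adjusted p = 0.0338), Cspg4 by 4.35 (adjusted p = 0.0457) and Rgs5 by 1.10 (adjusted p = 0.0465). Without Hdac2 ECKO replicate 1 or 3, or WT replicate 1 or 2, these calls were lost, and without WT replicate 3 that of Cspg4 was (adjusted p = 0.0577). With the length trend removed, Rgs5 (adjusted p = 0.0672) and Cspg4 (adjusted p = 0.0841) did not pass, nor with a minimum mean count of 3 (edgeR adjusted p = 0.0503 and 0.0509). Rgs5 also missed the threshold with median-ratio scaling (adjusted p = 0.053) and with only the 2 groups fitted (adjusted p = 0.0557), and DESeq2 gave no adjusted p for Cspg4. Hdac2 ECKO replicates 1 and 3 thus had the highest Tbx18 and Tbx15 levels together with high mural marker sums, while beta-catenin GOF replicate 1 had the highest mural sum with Tbx18 at 0.341 CPM. For Tbx2, the 3 highest libraries were those with the 3 highest mural sums, Hdac2 ECKO replicates 1 and 3 and beta-catenin GOF replicate 1. The part of mural cells in the T-box values was not tested.

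**Figure D5:**
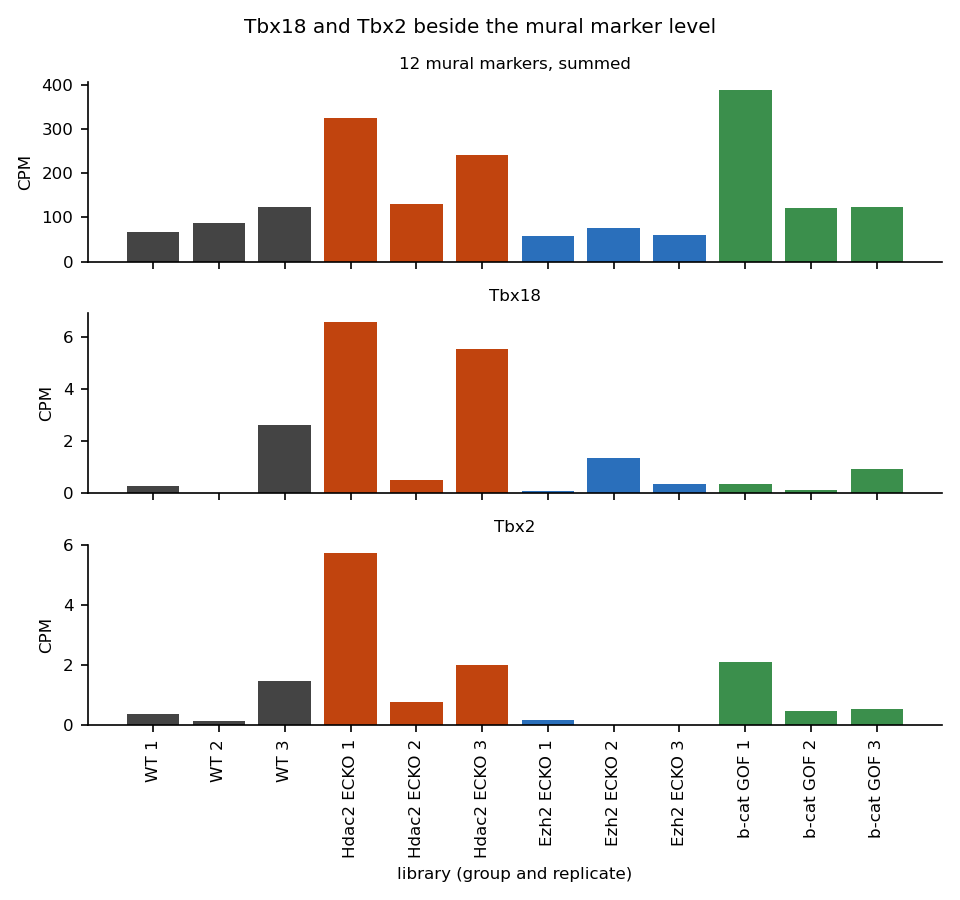
Summed CPM of the 12 mural markers (top), Tbx18 (middle) and Tbx2 (bottom) in each library, bars colored by group. Hdac2 ECKO replicates 1 and 3 are high in the top 2 panels, whereas beta-catenin GOF replicate 1 has the highest marker sum (389 CPM) and a Tbx18 level of 0.341 CPM.

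Six5, a homeobox gene of muscle and lens, was at 2.15, 0.792 and 1.89 CPM in WT libraries, 2.27, 3.33 and 5.20 CPM for Hdac2 ECKO, 4.96, 1.89 and 3.74 CPM in the Ezh2 ECKO-labelled libraries, and 2.32, 3.64 and 2.03 CPM in beta-catenin GOF. The Hdac2 ECKO values lay just above the WT values, with 2.27 as the lowest against 2.15 as the highest. The log2 fold changes were 1.16 (adjusted p = 0.175), 1.13 (adjusted p = 0.236) and 0.73 (adjusted p = 0.915). Irx3, an Iroquois homeobox gene of neural tube and heart, was at 4.20, 4.24 and 1.85 CPM in WT libraries, 1.44, 1.18 and 2.70 CPM for Hdac2 ECKO, 1.56, 1.14 and 0.647 CPM in the Ezh2 ECKO-labelled libraries, and 3.68, 2.64 and 1.28 CPM in beta-catenin GOF. WT replicate 3 was again the lowest of WT, and only the Ezh2 ECKO-labelled libraries lay wholly below it. The log2 fold changes were -0.95 (adjusted p = 0.314), -1.62 (adjusted p = 0.148) and -0.44 (adjusted p = 0.953). Irx3os overlaps Irx3 on the opposite strand.

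The neural members were low. Nkx6-2, a factor of oligodendrocyte precursors and motor neuron progenitors, was at 2.64, 3.61 and 2.67 CPM in WT libraries, 3.18, 2.61 and 4.16 CPM for Hdac2 ECKO, 1.88, 1.57 and 4.06 CPM in the Ezh2 ECKO-labelled libraries, and 3.99, 2.51 and 4.01 CPM in beta-catenin GOF. All groups overlapped. The gene overlaps Inpp5a on the opposite strand, and without strand the reads of the shared stretch cannot be told apart. Oligodendrocyte markers summed to 13.4 to 86.7 CPM per library, highest in WT replicate 3, where Nkx6-2 was at 2.67 CPM.

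Pax6, the paired-box gene of eye and cortical progenitors, was at 0.347, 0.443 and 1.89 CPM in WT libraries and 2.35, 1.34 and 2.50 CPM for Hdac2 ECKO. It was at 1.72, 1.14 and 1.29 CPM in the Ezh2 ECKO-labelled libraries and 0.921, 0.818 and 0.755 CPM in beta-catenin GOF. WT replicate 3 lay among the mutant values and WT replicates 1 and 2 below all of them. The log2 fold change in Hdac2 ECKO was 1.21 (SE 0.79, adjusted p = 0.3), and the astrocyte marker sum, as Pax6 is also an astrocyte gene, was 24.51 to 36.12 CPM in WT libraries and 50.9 to 77.0 CPM for Hdac2 ECKO. It was 44.5 to 80.3 CPM in the Ezh2 ECKO-labelled libraries and 37.6 to 54.5 CPM in beta-catenin GOF, with 3 to 7 of the 8 markers detected per library over all groups. Most of the sum was Gja1, a gap junction gene, at 25.9 CPM in WT libraries and 49.9, 50.1 and 42.7 CPM in the mutant groups. Gfap, a defining astrocyte gene, was at 0.852 CPM in WT libraries and lower in all 3, at 0.174, 0.192 and 0.671 CPM, and Slc1a3 was at 3.51 CPM against 8.56, 3.98 and 1.81 CPM. None of these markers passed the test. The part of astrocytes in the Pax6 values was not tested.

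Lhx6, the LIM-homeodomain factor of parvalbumin and somatostatin interneurons, was at 0.486, 0.127 and 0.214 CPM in WT libraries and 0.303, 0.653 and 0.971 CPM for Hdac2 ECKO. In the Ezh2 ECKO-labelled libraries it was at 0.324, 0.315 and 0.790 CPM, and in beta-catenin GOF at 0.478, 0.528 and 0.058 CPM. Interneuron markers summed to 0.0787 to 3.19 CPM, with Slc32a1 above 0 only in Hdac2 ECKO replicate 1. Tbx6, a factor of presomitic mesoderm, was at 0, 0 and 0.356 CPM in WT libraries, 0, 0.555 and 0.208 CPM for Hdac2 ECKO, 1.95, 0.0787 and 1.01 CPM in the Ezh2 ECKO-labelled libraries, and 0.0682, 0 and 0.203 CPM in beta-catenin GOF. The highest values of Tbx6 were in replicates 1 and 3 of the Ezh2 ECKO-labelled libraries, through which it reached the count minimum. The log2 fold change of 3.07 there (SE 1.77, edgeR adjusted p = 0.293) did not pass.

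RNA of genes whose products repress these factors or work with them was measured in the same libraries. All 11 genes of the PRC2 core list were tested. In Hdac2 ECKO, Jarid2, an accessory subunit that guides the complex to chromatin, rose by 1.19 on the log2 scale (SE 0.31, edgeR adjusted p = 0.0381), from 20.3 ± 5.51 to 46.4 ± 7.59 CPM. Rbbp4, a histone-binding subunit that PRC2 shares with HDAC complexes, fell by 0.98 (SE 0.27, adjusted p = 0.0408), from 115 ± 27.5 to 58.2 ± 6.81 CPM. With 2 of 11 called (all genes 9.2%), the other 9 did not pass in Hdac2 ECKO, and none of the 11 passed in the other 2 comparisons against WT. The list's median log2 fold change was 0.49 in Hdac2 ECKO, 0.40 in the Ezh2 ECKO-labelled libraries and 0.16 in beta-catenin GOF. The catalytic subunit genes were at 34.97 CPM for Ezh1 and 8.63 CPM for Ezh2 over all libraries, or 4.70 and 1.29 CPM per kb. Over all libraries Eed was at 85.1 CPM, Suz12 57.0, Rbbp7 254.9, Mtf2 65.5, Aebp2 35.0, Phf1 7.32 and Phf19 0.388 CPM.

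Of the 6 tested genes of the Groucho family, Tle5 fell by 2.88 on the log2 scale in Hdac2 ECKO (SE 0.67, edgeR adjusted p = 0.0338), from 270 ± 67.7 to 36.7 ± 24.6 CPM. The others had positive log2 fold changes of 0.18 to 0.90 there and did not pass. The Jarid2, Rbbp4 and Tle5 calls were each lost without Hdac2 ECKO replicate 1 or 3, or without WT replicate 1 or 2, and that of Jarid2 (adjusted p = 0.0968) with the length trend removed. In the same comparison 1 of 5 tested erythroid markers, Alas2, fell by 4.10 on the log2 scale (edgeR adjusted p = 0.0342) and 1 of 5 tested microglia and leukocyte markers, Cd74, fell by 5.70 (adjusted p = 0.0323), calls that were lost without the same 4 libraries, and that of Alas2 also with the length trend removed (adjusted p = 0.051). Every Hdac2 ECKO library lay below every WT library in both marker sums, but most of the WT microglia and leukocyte sum was Cd74. The part of blood cells in the Tle5, Jarid2, Rbbp4 and T-box values was not tested. The 5 tested LIM-homeodomain partners had 0 calls against WT, among them Lmo2, an endothelial and blood factor at 149 CPM per kb. The 3 tested partners of Six5 and its relatives (Eya and Dach genes) had 0 calls too, as had both lysine 27 demethylase genes, Kdm6a and Kdm6b. Of all tested genes 9.2%, 1.03% and 0.0% passed in these 3 comparisons.

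Of a further list of 77 developmental regulators outside the rule (Sox, Gata, Fox, Zic, Msx and others), 16 were tested (20.8%), against 11.5% of the 104 members. Their median log2 fold changes against WT were 0.54, 0.36 and 0.17. In these 3 comparisons 0 of the 16 passed, where 9.2%, 1.03% and 0.0% of all tested genes did. The most abundant of the list was Foxc1, a forkhead factor of vessels and meninges. Its level was 118 ± 39.6 CPM in WT libraries, 227 ± 61.2 CPM for Hdac2 ECKO (edgeR adjusted p = 0.0619), 208 ± 54.2 CPM in the Ezh2 ECKO-labelled libraries and 138 ± 36.4 CPM in beta-catenin GOF. Like the 104 members, most of this list was below the count minimum.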

How the data were processed

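RNA of 12 libraries of sorted mouse cortical endothelial cells was analysed from 1 deposited table with a value per gene and library. The SMART-Seq v4 PLUS kit, which amplifies cDNA from few cells, was used per the labels' protocols. The submitters' processing notes name FastQC, cutadapt, STAR, featureCounts, DESeq2 and mm10, without their settings. Although its title calls the values normalized, the deposited values were counts: whole numbers with totals from 24781070 to 36109975, and an excess of even numbers at low values (79.5% to 84.0% even from 10 to 50), as arises from counting both mates of each fragment. No UMI was used, per the labels, so amplified copies count repeatedly. Gene length is in bases per the file headers, and positions in the table match GENCODE M21 on GRCm38 for 99.1% of genes when counted from 1.

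The 12577 genes averaging 10 or more counts per library were tested with edgeR 4.0.16 in R 4.3.3: TMM scaling, 1 quasi-likelihood fit to the 12 libraries by group, Benjamini-Hochberg adjustment per comparison and a threshold of 0.05. A standard error is the log2 fold change divided by the square root of F. CPM is per 1000000 of the TMM-scaled total. A member counted as detected at 4 counts, above the floor of 3 counts. Within each group the libraries differed by far more than sampling noise (smallest chi-square divided by its degrees of freedom 62.6), so none was a copy. Groups and replicate numbers came from the titles. Values in every library are given for the 12 tested members, which are also the 12 of highest mean CPM, and for the targeted genes. PRC2 core genes and up to 4 members past the threshold of each other list are named by group or overall means. Foxc1 was named after its values were seen. The members and lists were chosen with earlier results of these data known, so they are no independent support. Scripts were tested on simulated data. Alternatives were median-ratio scaling, no filter, a minimum mean count of 3, DESeq2 1.42.0, limma 3.58.1 on log2 CPM with a prior count of 2, voom with sample quality weights, a block for replicate number, a length trend removed, only the 2 groups compared, other detection thresholds, and leaving out each library. Some items are not reported here.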

Additional observations from a re-analysis of the deposited data

Results flagged for a closer look

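Of the members below the count minimum of the test, 6 reached 10 or more counts in a mutant library and exceeded every WT library. For 4 of these, all but Dlx1 and Pax3, a single library held most of the counts. Only excesses in mutant libraries were looked for. In all, 8 untested members had 10 or more counts in some library. Among them Lhx2 and Pax5 were highest in WT replicate 3, at 14 and 10 counts. The share of all low-count genes that meet the same rule was not counted. Nkx6-1, a factor of motor neuron progenitors and pancreatic beta cells, had 53 counts in Hdac2 ECKO replicate 1, 4 in replicate 2, 8 and 2 in beta-catenin GOF replicates 1 and 3, and 0 elsewhere. In Hdac2 ECKO replicate 1, Lhx5, a forebrain LIM-homeodomain gene, had 32 counts (0 to 6 elsewhere), Hoxc4 had 20 (0 to 4 elsewhere) and Pax3, a neural crest gene, had 10 (0 to 2 elsewhere). In replicate 3 of the Ezh2 ECKO-labelled libraries, Dlx1, an interneuron gene, had 16 counts (0 to 6 elsewhere) and Nkx6-3 had 20 (0 to 2 elsewhere). These libraries also had the most genes above 0 of all 12, 17091 and 16026. The part of that wider detection in these counts was not tested.

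Tbx2 had log2 fold changes of opposite sign in the deletion groups, 2.12 in Hdac2 ECKO (edgeR adjusted p = 0.232) and -3.41 in the Ezh2 ECKO-labelled libraries (adjusted p = 0.151), neither of which passed. Every Hdac2 ECKO value (0.751 to 5.72 CPM) lay above the WT mean of 0.645 CPM and every value of the Ezh2 ECKO-labelled libraries (0 to 0.162 CPM) below it, but both groups overlapped with the single WT values of 0.127 to 1.46 CPM. The direct test gave a log2 difference of 5.54 between the deletion groups (edgeR adjusted p = 0.321, unadjusted p = 0.00186), which did not pass.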

How the results depend on the processing

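The count of members called, 0 in all 6 comparisons, stayed 0 in beta-catenin GOF against WT under every alternative run. In Hdac2 ECKO against WT it was 1 (Tbx1) with DESeq2, 1 with the replicate block and 1 with only the 2 groups fitted, 2 without a filter (Tbx1 and Nkx6-1) and 6 with sample quality weights, and ran from 0 to 1 over the left-out libraries. In the Ezh2 ECKO-labelled libraries it was 1 (Tbx1) with DESeq2, 1 with the replicate block, 1 without a filter and 4 with sample quality weights, and from 0 to 2 over the left-out libraries. For Hdac2 ECKO against Ezh2 ECKO it was 1 with DESeq2 and 1 without a filter (Tbx2 in both), and 0 for each left-out library. For beta-catenin GOF against Hdac2 ECKO it was 1 without a filter (Tbx18), 2 with sample quality weights and 0 for each left-out library, and against Ezh2 ECKO 1 with sample quality weights (Tbx3) and from 0 to 1 over the left-out libraries. Genes called over the whole table moved far more: 1157 in Hdac2 ECKO against WT became 0 without WT replicate 1, WT replicate 2 or Hdac2 ECKO replicate 3, 3 without Hdac2 ECKO replicate 1, and 604 to 5374 over the other alternatives, and 129 in Ezh2 ECKO against WT became 2 to 2329 over left-out libraries and 17 to 3743 otherwise. The cause was not tested.

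Same-numbered replicates did not deviate together (correlations of -0.142 to 0.272 over the 6 comparisons), so the numbers were not taken to pair libraries. The difference in detected members was 0.667 to 7.17 for Hdac2 ECKO, -1.5 to 0.5 for the Ezh2 ECKO-labelled libraries and -2.17 to 0.167 for beta-catenin GOF over the left-out libraries. At 1 count it was 8.67 in Hdac2 ECKO and 4.67 in the Ezh2 ECKO-labelled libraries, and at 0.5 CPM it was 2.33 there and 1.67 in beta-catenin GOF. No member row was antisense, so leaving such rows out gave no value.

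Log2 fold changes against WT reversed only where they were far from the threshold. With limma, Tbx18 was 0.11 and Tbx15 -0.40 in the Ezh2 ECKO-labelled libraries, and in beta-catenin GOF Tbx18 was 0.058, Tbx15 -0.49, Pax6 0.27 and Tbx6 0.12. With sample quality weights, Tbx4 was 0.0255, Tbx18 1.68 and Tbx15 -1.26 in the Ezh2 ECKO-labelled libraries, and in beta-catenin GOF Tbx3 was 0.0303, Nkx6-2 -0.0213, Tbx18 2.13, Tbx15 -1.05, Pax6 0.67 and Tbx6 0.82. With the replicate block, Tbx18 was 0.97 in the Ezh2 ECKO-labelled libraries, and Pax6 0.13 and Tbx15 -0.39 in beta-catenin GOF. With the length trend removed, Nkx6-2 was 0.24 in the Ezh2 ECKO-labelled libraries. Over left-out libraries the ranges that crossed 0 were, in Hdac2 ECKO, -0.059 to 0.32 for Nkx6-2 and -0.18 to 5.97 for Tbx6. In the Ezh2 ECKO-labelled libraries they were -0.84 to 0.22 for Tbx4, -2.18 to 2.06 for Tbx18 and -2.79 to 1.28 for Tbx15. In beta-catenin GOF they were -0.21 to 0.0616 for Tbx3, -2.12 to 1.71 for Tbx18, -0.48 to 1.06 for Pax6, -0.40 to 2.08 for Tbx2, -0.048 to 1.04 for Lhx6, -3.00 to 1.07 for Tbx15, -1.75 to 4.51 for Tbx6 and -0.31 to 0.0155 for Ctnnb1. For several low members DESeq2 gave no adjusted p, and these fits are left out. Depth limits the 92 members below the count minimum, for which no test was made.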
